A study of Mus musculus with 6 samples.

Results

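Lcn2, Hp and Saa3 encode secreted proteins of the acute-phase response, the set of proteins that tissues and liver release during infection, injury and inflammation. They are 3 of the 29781 genes listed in 6 single-cell RNA-seq libraries of mouse pancreatic tumours. The 3 genes were chosen from results of these same libraries, in which their levels differed between treatment groups, so differences between the groups in these genes are given as descriptions without a test.

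The tumours arose after cells of the murine pancreatic carcinoma line KPC were placed in the pancreas of C57BL/6J mice labelled wild-type. Of the 6 mice, 3 received the antibody #44-anti-mVSIG4 (anti-VSIG4) and 3 received IgG, and the tumours were taken 11 days after inoculation. Each mouse gave 1 library (platform DNBelab C TaiM4 V3.0), and the sources used here give neither the dose nor the schedule of the antibody. VSIG4 is a complement receptor of tissue macrophages that also restrains T cells.

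Lipocalin 2, the product of Lcn2, binds the siderophores with which bacteria take up iron. It is stored in the secondary granules of neutrophils and is made by epithelia under stress. Haptoglobin, the product of Hp, binds free haemoglobin so that macrophages can clear it through CD163; the liver is its main source in blood, and neutrophils carry it in granules. Saa3 is a serum amyloid A of mice that is made mainly outside the liver, in macrophages, fat cells and stressed epithelia. Interleukin 1, interleukin 6 and the transcription factors NF-kB, STAT3 and C/EBP drive acute-phase genes in many tissues.

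The promoters of 2 of the 3 genes were found in RefSeq on build GRCm38.p6 and are shown because their level in each cell class is described next. Each holds 250 bases before the transcription start and 50 bases after it, on the minus strand, at chr2:32387690-32387989 for Lcn2 and chr7:46715627-46715926 for Saa3. Capitals mark the match to the C/EBP letters TTGCNNAA, searched on both strands.
Lcn2: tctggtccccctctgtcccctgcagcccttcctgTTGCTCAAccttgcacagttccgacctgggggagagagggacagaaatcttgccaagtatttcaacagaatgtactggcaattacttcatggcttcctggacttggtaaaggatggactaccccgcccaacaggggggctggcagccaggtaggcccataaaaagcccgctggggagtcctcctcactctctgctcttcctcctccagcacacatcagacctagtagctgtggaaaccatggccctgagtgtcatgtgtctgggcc
Saa3: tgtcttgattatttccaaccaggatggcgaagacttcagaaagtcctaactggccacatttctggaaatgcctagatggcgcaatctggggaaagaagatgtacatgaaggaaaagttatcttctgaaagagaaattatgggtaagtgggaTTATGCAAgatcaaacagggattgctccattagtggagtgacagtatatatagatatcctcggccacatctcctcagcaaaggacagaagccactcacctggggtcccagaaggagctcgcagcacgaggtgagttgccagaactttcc
The match lies at bases -216 to -209 from the start of Lcn2 and at -99 to -92 from the start of Saa3. Of 27025 promoters of the same length, 10.8% hold such a match. The letters of NF-kB (GGGAANNNCC, in 5.67% of promoters) and of STAT (TTCNNNGAA, in 8.47%) are not in these 2 windows, and the motifs do not overlap here.

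The 6 libraries held 47794 barcodes, of which 47603 were kept as cells, and 26606234 to 47221033 unique molecular identifiers (UMIs, each counting 1 captured mRNA molecule). Levels are given in CPM (per-million counts), the UMIs of a gene scaled to the total UMIs of the same class of cells in a library. The cells fell into 24 clusters. Of these, 1 cluster of 461 cells, led by Ins2, Hbb-bs and Camp, was mixed in cell type and was clustered again. This gave 16 classes named from marker genes and 1 unnamed group of 2 clusters. The unnamed group looked like nuclei, with more than 15% of UMIs from genes longer than 100 kb in the median cell. Each named class is a rebuilt, marker-based one (neutrophil-like, monocyte/macrophage-like and so on), and the 3 genes were kept out of the marker lists and out of the genes used for clustering. The nucleus-like share of cells was 0.379%, 0.154% and 5.16% in anti-VSIG4 libraries 1 to 3, against 0.419%, 16.0% and 43.0% in IgG libraries 1 to 3. Libraries with under 1% (anti-VSIG4 1 and 2, IgG 1) and with more (anti-VSIG4 3, IgG 2 and 3) are therefore also compared among themselves. The tumour/epithelial class carries epithelial markers such as Epcam and Krt8 and can hold normal duct cells beside tumour cells. No class of hepatocytes or adipocytes was found, and the 6 hepatocyte markers summed to 1.20, 8.69 and 3.21 CPM of all cells with anti-VSIG4 and 3.69, 11.9 and 8.44 CPM with IgG. Between library pairs, 1018 to 1827 barcode names were shared, but the names are running numbers and cells with the same name were no more alike than others.

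The 3 genes came from different cells. Most Lcn2 UMIs lay in neutrophils and tumour/epithelial cells, and most Hp UMIs in neutrophils. Saa3 UMIs lay mainly in monocyte/macrophages, while its level was highest in fibroblasts. Over all libraries, neutrophils held 46.7% of Lcn2 UMIs and tumour/epithelial cells 34.4%, with 8.86% in monocyte/macrophages and 3.32% in fibroblasts. Of the Hp UMIs, neutrophils held 54.1%, monocyte/macrophages 30.2% and fibroblasts 6.14%. Of the Saa3 UMIs, monocyte/macrophages held 79.5%, fibroblasts 11.6% and neutrophils 3.32%.

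**Figure D1:**
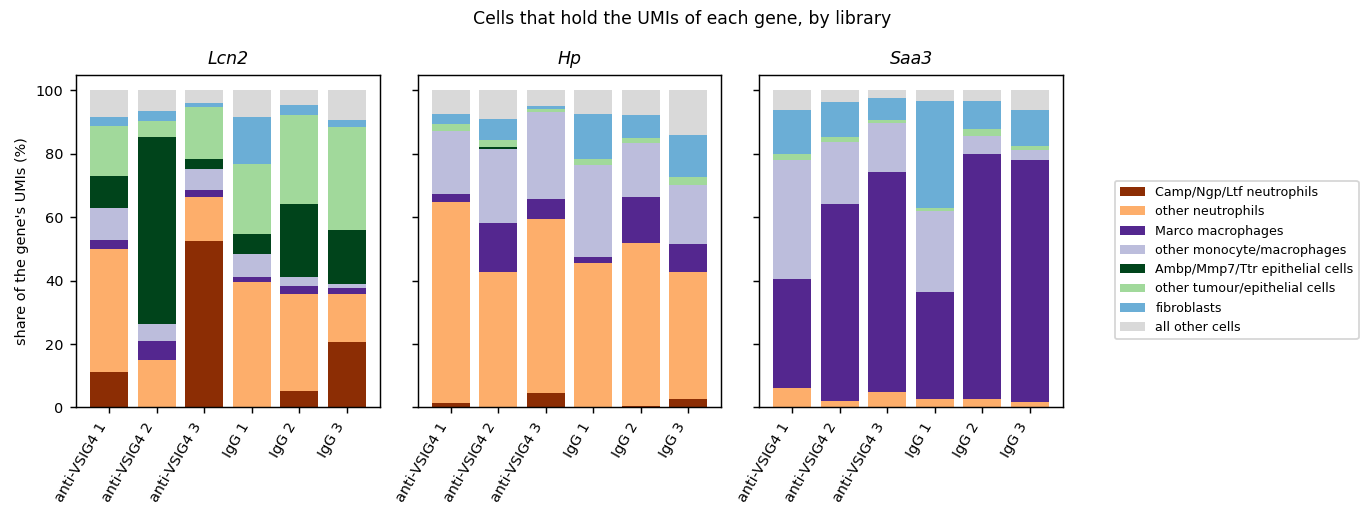
Share of the UMIs of Lcn2, Hp and Saa3 (percent) held by groups of cells. Summed over the 6 libraries, neutrophils hold 54.1% of Hp and monocyte/macrophages 79.5% of Saa3. Lcn2 is divided between neutrophils (46.7%) and tumour/epithelial cells (34.4%).

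As a level, Lcn2 stood at 324 CPM in neutrophils, 269 in acinar cells, 177 in tumour/epithelial cells and 78.5 in fibroblasts. Monocyte/macrophages had 24.2 CPM of Lcn2, against 15.7 CPM in T cells, which are not known as a source of it. Hp stood at 916 CPM in neutrophils, 354 in fibroblasts and 201 in monocyte/macrophages, against 48.2 in T cells and 23.0 in tumour/epithelial cells. Saa3 reached 3434 CPM in fibroblasts and 2712 in monocyte/macrophages, and 288 in neutrophils, against 124 in T cells. Thus Hp was higher in neutrophils than in any other class in each of the 6 libraries, while the order of fibroblasts and monocyte/macrophages for Saa3 changed between libraries.

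**Figure D2:**
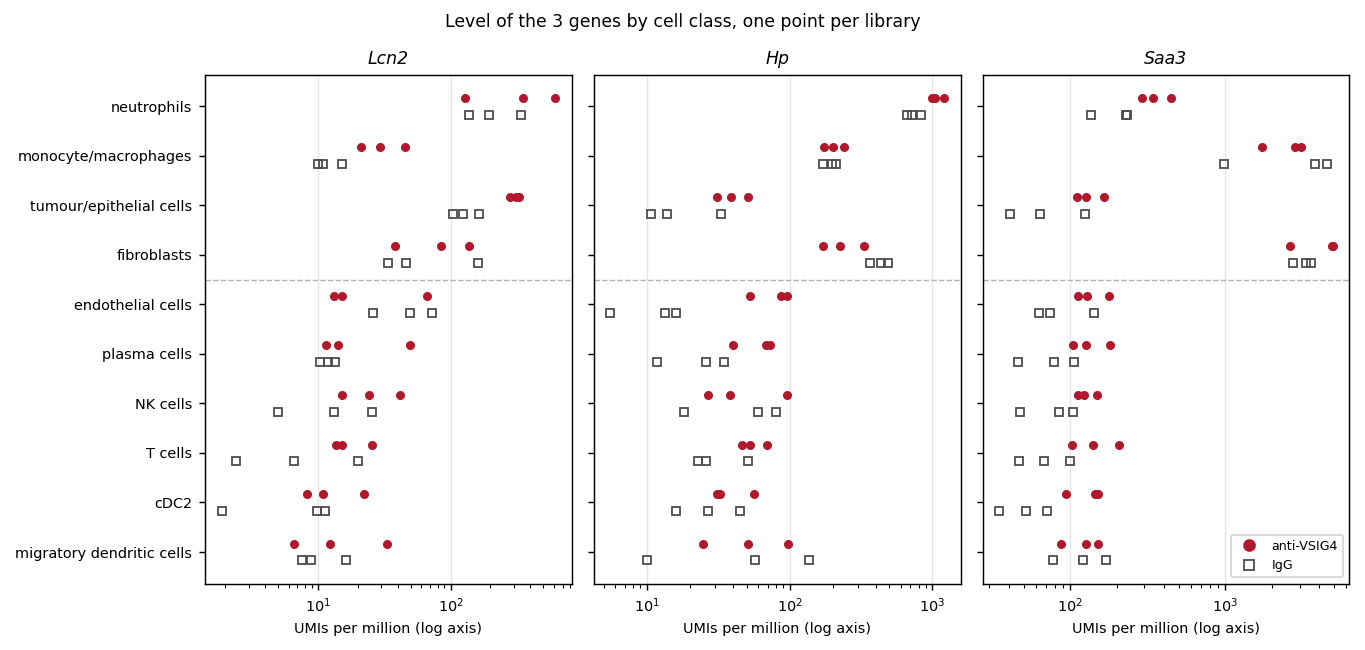
Level of Lcn2, Hp and Saa3 (CPM, log axis) in cell classes, 1 point for each library, with anti-VSIG4 libraries drawn beside IgG libraries. Neutrophils lead for Hp (916 CPM over all libraries), fibroblasts and monocyte/macrophages for Saa3 (3434 and 2712 CPM). Over the libraries, Lcn2 in acinar cells ranged from 0 to 2003 CPM and Saa3 in endocrine cells from 0 to 1192 CPM. A level of 0 has no place on a log axis.

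Within these classes small groups of cells held much of the RNA. The 108 cells with the most Lcn2 carried 50% of its 20466 UMIs, and the 134 cells with the most Saa3 carried 50% of its 255791 UMIs. For Hp, 1855 cells were needed for 50% of its 50001 UMIs. The top 1% of cells (476 cells) held 68.5% of Lcn2 and 75% of Saa3 UMIs, but 24.1% of Hp UMIs.

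**Figure D3:**
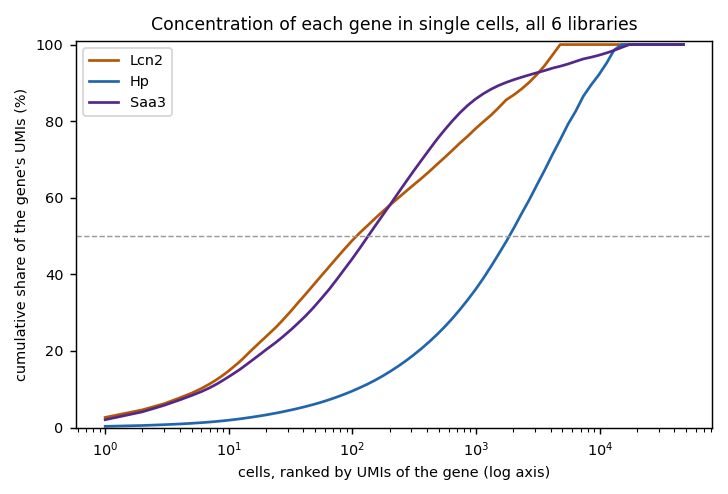
Cumulative share of each gene's UMIs (percent, y axis) against the number of cells ranked by their UMIs of that gene (log x axis), over all 47603 cells. The curves of Saa3 and Lcn2 pass 50% at 134 and 108 cells, that of Hp at 1855 cells.

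Of the 108 cells richest in Lcn2, 57 were tumour/epithelial cells and 41 were neutrophils. The neutrophils among them came mostly from a sub-cluster of 46 cells led by Camp, Ngp and Ltf, which encode secondary granule proteins made while neutrophils mature in the bone marrow. These cells were split from the mixed cluster and named as neutrophils by marker genes. This granule sub-cluster had 18472 CPM of Lcn2 and 3792 CPM of Hp and held 21.6% of all Lcn2 UMIs. Its cells numbered 3, 0 and 30 in the anti-VSIG4 libraries and 0, 2 and 11 in the IgG libraries, so 1 anti-VSIG4 tumour gave most of them. Of the epithelial cells, 29 of 57 came from a sub-cluster of 65 cells led by Ambp, Mmp7 and Ttr, with 7054 CPM of Lcn2 and 15.1% of its UMIs. Its cells numbered 4, 21 and 2 in the anti-VSIG4 libraries and 3, 16 and 19 in the IgG libraries. Another, larger source was the neutrophil sub-cluster led by Retnlg, Lrg1 and Stfa2l1 (4362 cells, 457 CPM), which held 17.9% of Lcn2 UMIs.

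Hp was spread over neutrophils more evenly. The Retnlg and Lrg1 sub-cluster had 1271 CPM of Hp and held 20.4% of its UMIs, and the other large neutrophil sub-clusters had 740.4 to 938 CPM. Smaller neutrophil sub-clusters of 875 and 97 cells had 199 and 654 CPM. Among monocyte/macrophages, Hp was highest in a classical-monocyte-like sub-cluster of 930 cells led by Ly6c2 and Ifitm6, with 1171 CPM and 9.19% of all Hp UMIs. Monocyte-type cells thus had an Hp level like that of neutrophils, and the Lyve1 resident-type macrophages had 99.2 CPM.

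Saa3 was concentrated in a monocyte/macrophage sub-cluster of 1733 cells led by Ltc4s, Marco and Il6. It had 11840 CPM of Saa3 and held 64.0% of all Saa3 UMIs. Marco encodes a scavenger receptor and Il6 an inducer of the acute phase. Resident-type macrophages, led by Ccl8, Cbr2 and Lyve1 (660 cells), had 4349 CPM and 5.50% of the UMIs. Of the 134 cells richest in Saa3, 118 were monocyte/macrophages, 15 were fibroblasts and 1 was a T cell, and each held at least 398 UMIs of Saa3, the highest 5272.

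The share of cells with at least 1 UMI was compared after each cell was thinned to 1000 UMIs, since median depth was 1576 UMIs in neutrophils, 3010 in T cells, 4490 in monocyte/macrophages, 4817 in fibroblasts and 6298 in tumour/epithelial cells. Free RNA in the droplets gives UMIs in cells that do not make a gene, so T cells serve as a background here. Lcn2 was found in 9.49% of neutrophils (exact 95% interval 9.04% to 9.96%) and 7.24% of tumour/epithelial cells (6.28% to 8.29%), against 1.49% of T cells (1.20% to 1.83%). In monocyte/macrophages the share of 1.95% (1.70% to 2.22%) was close to that background. Hp was found in 34.4% of neutrophils (33.6% to 35.1%), 16.7% of fibroblasts and 14.9% of monocyte/macrophages, against 4.17% of T cells (3.68% to 4.71%), while tumour/epithelial cells at 3.47% lay below T cells. Saa3 was found in 38.7% of fibroblasts (35.5% to 42.0%) and 23.6% of monocyte/macrophages (22.8% to 24.3%), against 10.4% of T cells (9.61% to 11.2%). These intervals cover counting error only. Without thinning, 4.93% of T cells had a Lcn2 UMI, 12.2% a Hp UMI and 30.4% a Saa3 UMI.

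The granule cells and the Ambp cells were mostly positive for Lcn2. In the granule sub-cluster 97.8% of cells had Lcn2 and 97.8% had Hp, and in the Ambp and Mmp7 sub-cluster 87.7% had Lcn2. Saa3 was found in 51.0% of the Marco sub-cluster and 47.9% of resident-type macrophages, and Hp in 50.7% of the monocyte-type cells.

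**Figure D4:**
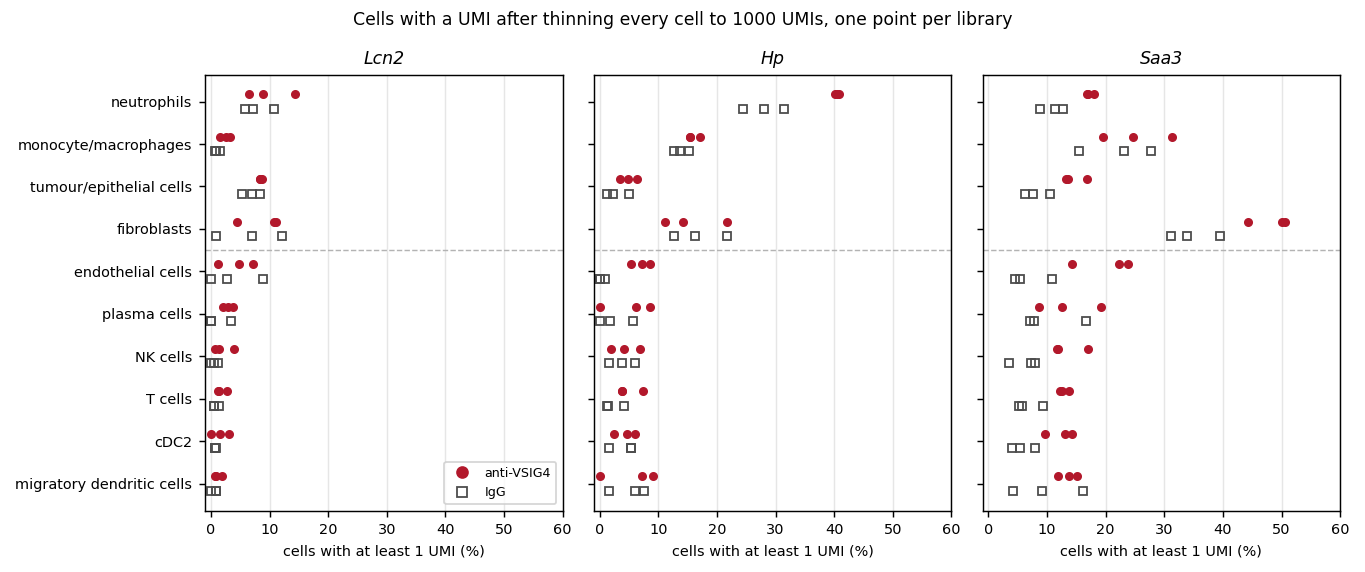
Share of cells with at least 1 UMI of Lcn2, Hp or Saa3 (percent) after thinning to 1000 UMIs per cell, by class, with 1 point for each library and anti-VSIG4 beside IgG. For Hp, 40.1% to 40.8% of neutrophils were positive in anti-VSIG4 libraries and 24.5% to 31.4% in IgG libraries.

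Lcn2 stood higher in the anti-VSIG4 tumours, and most of the difference came from few cells. Over all cells its level was 130.6, 68.9 and 148 CPM in anti-VSIG4 libraries 1 to 3, against 66.6, 59.7 and 62.5 CPM in IgG libraries 1 to 3. The groups did not overlap, but anti-VSIG4 2 was only just above the highest IgG library. Group means were 116 ± 41.6 CPM with anti-VSIG4 and 63.0 ± 3.48 CPM with IgG (SD, n = 3 each), and edgeR gave a log2 fold change of 1.11 ± 0.32 (SE). Of 17976 genes tested in the sum of all cells, 2.09% had every anti-VSIG4 library above every IgG library. Within the libraries with few nucleus-like cells the log2 change was 0.62, and within those with many it was 1.64. The change was 0.65 without the granule and the Ambp sub-clusters.

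The mean difference of 52.9 CPM of Lcn2 over all cells was divided over the cells. The granule sub-cluster of neutrophils accounted for 48.0% of it, with 30.8 ± 41.4 CPM of the sum over all cells in anti-VSIG4 libraries and 5.38 ± 6.75 in IgG libraries (SD, n = 3 each), a spread larger than the difference. Without anti-VSIG4 3 it accounted for 5.06% of a difference of 36.8 CPM. The Ambp and Mmp7 epithelial sub-cluster accounted for 18.7%, which was -0.892% without anti-VSIG4 2 and 47.1% without anti-VSIG4 3. The other neutrophils accounted for 17.3%, which was -5.91% without anti-VSIG4 1 and 34.0% without anti-VSIG4 3, and monocyte/macrophages for 17.0% (14.8% to 23.5% with each library left out). Classes outside these sources added little.

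**Figure D5:**
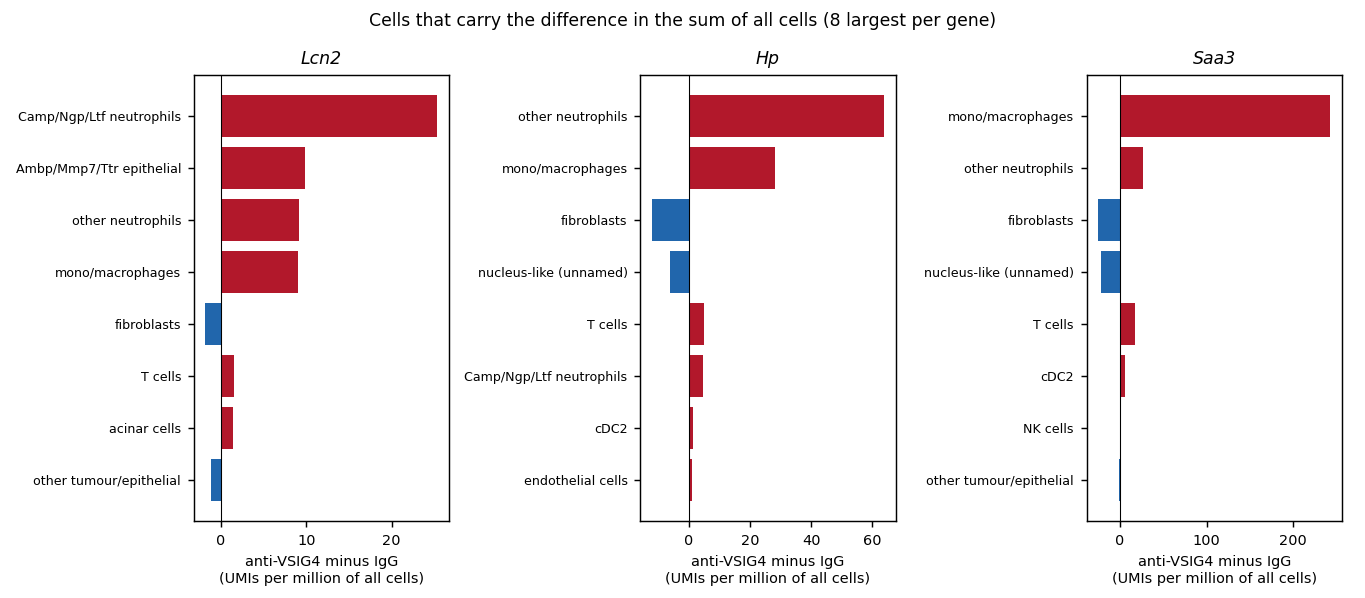
Contribution of each group of cells to the level over all cells (CPM, mean difference of anti-VSIG4 minus IgG libraries) for Lcn2, Hp and Saa3. The granule sub-cluster carries 48.0% of the Lcn2 difference (5.06% without anti-VSIG4 3), the other neutrophils 72.9% of the Hp difference and monocyte/macrophages 97.0% of the Saa3 difference.

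In tumour/epithelial cells Lcn2 was 279, 328 and 310.2 CPM in anti-VSIG4 libraries, against 165, 125 and 104 CPM in IgG libraries. The groups did not overlap there (306 ± 25.0 and 131 ± 30.7 CPM, SD, n = 3 each; log2 change 1.23 ± 0.21), in a class where 2.74% of 12009 genes lay above in every anti-VSIG4 library. Without the Ambp and Mmp7 sub-cluster the levels were 172, 26.7 and 261 CPM with anti-VSIG4 and 129, 69.4 and 68.7 CPM with IgG. The groups then overlapped, with anti-VSIG4 2 the lowest of all 6 libraries. Within that sub-cluster of 65 cells, Lcn2 was 22371, 9298 and 14751 CPM in anti-VSIG4 libraries, against 6945, 3691 and 4874 CPM in IgG libraries, from 4, 21, 2, 3, 16 and 19 cells in that order (6.8% of 986 genes lay above). The cells of the sub-cluster thus held more Lcn2 in every anti-VSIG4 library, while their numbers overlapped between the groups and 3 libraries had 2 to 4 of them.

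In neutrophils Lcn2 was 350.5, 129 and 615 CPM with anti-VSIG4 and 196, 138 and 339.8 CPM with IgG. The groups overlapped (log2 change 0.85 ± 0.58). Without the granule sub-cluster the values were 274, 129 and 132 CPM with anti-VSIG4 and 196, 117 and 145 CPM with IgG. Anti-VSIG4 2 and 3 then lay within the range of the IgG libraries. The log2 change was 0.24 without anti-VSIG4 3, which held most of the granule cells. In the Retnlg and Lrg1 neutrophils Lcn2 was 519.6, 282 and 458 CPM with anti-VSIG4 and 422, 444 and 397 CPM with IgG, again overlapping.

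In monocyte/macrophages Lcn2 was low, at 45.6, 21.1 and 29.1 CPM with anti-VSIG4 and 15.1, 10.03 and 10.8 CPM with IgG. The groups did not overlap (log2 change 1.40 ± 0.27; 4.11% of 13054 genes lay above), and without the Marco sub-cluster they did, at a log2 change of 1.43 ± 0.44. Per 100 UMIs of the neutrophil genes S100a8 and S100a9 in these cells, Lcn2 had 2.09, 3.46 and 4.78 with anti-VSIG4 and 1.26, 2.49 and 5.93 with IgG, which overlap. The part of neutrophil RNA in this difference was not tested. In T cells Lcn2 was 25.5, 13.6 and 15.2 CPM with anti-VSIG4 and 20.1, 2.43 and 6.59 CPM with IgG, below monocyte/macrophages of the same library except in IgG 1. In fibroblasts the Lcn2 levels of the groups overlapped (log2 change 0.04 ± 0.67).

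Hp stood higher in neutrophils of anti-VSIG4 tumours and lower in their fibroblasts. In neutrophils Hp was 987, 1035 and 1205 CPM in anti-VSIG4 libraries, against 714, 660.5 and 826 CPM in IgG libraries. The groups did not overlap (1076 ± 114 and 733 ± 84.3 CPM, SD, n = 3 each; log2 change 0.66 ± 0.18), in a class where 2.89% of 11064 genes lay above in every anti-VSIG4 library. Without the granule sub-cluster the values were 972, 1035 and 1145 CPM with anti-VSIG4 and 714, 657 and 783 CPM with IgG, again without overlap (2.96% of 11006 genes lay above). Within library kinds the log2 change was 0.55 (few nucleus-like cells) and 0.88 (many).

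The groups did not overlap for Hp in 2 of the 6 neutrophil sub-clusters outside the granule cells. In the Retnlg and Lrg1 sub-cluster Hp was 1441, 1361 and 1240.3 CPM with anti-VSIG4 and 1109, 1043 and 1175 CPM with IgG. In the largest neutrophil sub-cluster, led by the heat-shock genes Hspa1a and Hspa1b, it was 739.6, 944 and 1156 CPM with anti-VSIG4 and 466, 502 and 625 CPM with IgG. In the first, 5.32% of 5866 genes lay above in every anti-VSIG4 library, and in the second 3.85% of 7070. In the other 4 sub-clusters the groups overlapped, with log2 ratios of the group means from -0.04 to 0.36. After thinning, 40.1%, 40.8% and 40.5% of neutrophils had Hp in anti-VSIG4 libraries, against 31.4%, 24.5% and 28.1% in IgG libraries.

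Over all cells Hp overlapped between the groups, at 284, 193 and 323 CPM with anti-VSIG4 and 212, 198 and 128 CPM with IgG (log2 change 0.77 ± 0.35). Within library kinds the change was 0.20 and 1.32. Of the mean difference of 87.5 CPM, neutrophils outside the granule sub-cluster accounted for 72.9%, monocyte/macrophages for 32.0% and fibroblasts for -14.0%. In monocyte/macrophages the Hp level itself overlapped, at 174, 202 and 240.0 CPM with anti-VSIG4 and 170.1, 197 and 213 CPM with IgG (log2 change 0.07 ± 0.22).

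In fibroblasts Hp was 329.7, 226 and 171 CPM with anti-VSIG4 and 492, 365 and 436 CPM with IgG. Every anti-VSIG4 library lay below every IgG library (242 ± 80.7 and 431 ± 63.6 CPM, SD, n = 3 each; log2 change -0.87 ± 0.26), in a class where 5.07% of 9607 genes did so. The libraries held 83, 183 and 54 fibroblasts with anti-VSIG4 and 207, 142 and 228 with IgG. Without the 98 fibroblasts that belong to the cells richest in Hp the groups overlapped and the log2 ratio was 0.22. The share of Hp-positive fibroblasts also overlapped, at 15.7% ± 5.44% with anti-VSIG4 and 16.9% ± 4.57% with IgG (SD, n = 3 each).

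In endothelial cells, which held 170 Hp UMIs in all, Hp was 53.1, 86.8 and 95.3 CPM with anti-VSIG4 and 13.4, 16.1 and 5.56 CPM with IgG. The groups did not overlap (6.87% of 6608 genes lay above), with a log2 change of 2.65 ± 0.40. Across all 6608 genes edgeR called 1 in endothelial cells (0.0151%). As Hp was chosen from these libraries, no test of Hp is given. Its levels there rest on 25, 57 and 58 UMIs with anti-VSIG4 and 7, 18 and 5 UMIs with IgG. The 8 neutrophil markers summed in the same endothelial cells did not overlap either (4 of the 8 single markers also lay above, and none of the 8 was at 0 in all libraries), at 3080, 1257 and 1281 CPM with anti-VSIG4 and 1006, 551 and 184 CPM with IgG. Set against the neutrophil genes S100a8 and S100a9, Hp gave 2.42, 10.4 and 9.62 UMIs per 100 in anti-VSIG4 endothelial cells and 2.53, 5.40 and 6.25 in IgG endothelial cells, which overlap. The 9 monocyte/macrophage markers summed in these endothelial cells did not overlap between the groups either, and 6 of the 9 also lay above singly. Their sum was 710, 748 and 1073 CPM with anti-VSIG4 and 359, 405 and 130 CPM with IgG. The parts of neutrophil and of monocyte/macrophage RNA in the endothelial difference were not tested.

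The mean difference of Saa3 over all cells lay in the share of monocyte/macrophages more than in the level of that class as a whole. That level also moves with the share of Marco cells in the class, given below. Over all cells Saa3 was 879, 1392 and 1492 CPM with anti-VSIG4 and 646, 1427 and 937 CPM with IgG, which overlap (log2 change 0.55 ± 0.36). Of the mean difference of 250.3 CPM, monocyte/macrophages accounted for 97.0%. Their larger share of UMIs, 39.7% in anti-VSIG4 and 29.0% in IgG libraries on average, gave +280 of it and their level gave -37.4. With nucleus-like cells left out of the sum, the difference of Saa3 over all cells was 147 CPM (log2 change 0.31), and the share of UMIs of monocyte/macrophages (40.4% with anti-VSIG4, 31.9% with IgG) gave +228 of it and their level -89.2. Without IgG 1 the difference over all kept cells was 71.6 CPM, of which monocyte/macrophages accounted for 67.1%. The share of monocyte/macrophages among cells was 25.4%, 32.7% and 26.5% with anti-VSIG4 and 32.0%, 20.9% and 11.4% with IgG, a mean difference of 6.76 points that was 3.04 points with nucleus-like cells left out of the denominator. No class share passed an exact two-sided permutation test (Benjamini-Hochberg adjusted p of at least 0.567; the smallest unadjusted p that 3 against 3 allows is 0.1).

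Within monocyte/macrophages Saa3 was 1731, 3046 and 2804 CPM with anti-VSIG4 and 983, 3757 and 4492 CPM with IgG. The groups overlapped widely (log2 change -0.33 ± 0.55), with IgG 1 lowest and IgG 3 highest. The change was 0.05 without IgG 3 and -0.77 without IgG 1, and it was 1.30 among libraries with few nucleus-like cells and -0.51 among those with many. In the Marco sub-cluster, the main source, Saa3 was 9469, 12172 and 16921 CPM with anti-VSIG4 and 8584, 9189 and 14155 CPM with IgG, also overlapping. This sub-cluster held 173, 406 and 170 of 2406, 2119 and 1797 monocyte/macrophages with anti-VSIG4. With IgG it held 113, 600 and 271 of 2289, 1705 and 1090. In the remaining monocyte/macrophages Saa3 was 991, 900 and 589 CPM with anti-VSIG4 and 454, 407 and 254 CPM with IgG, which do not overlap (log2 change 1.12; 3.78% of 12479 genes lay above in these cells). Group means with anti-VSIG4 and IgG were 12854 and 10643 CPM in the sub-cluster and 826 and 372 CPM in the remaining cells. The resident-type macrophages had 7490.5, 8516 and 417 CPM with anti-VSIG4 and 1813, 1281 and 1191 CPM with IgG. Thus 2 anti-VSIG4 libraries stood high and the other lowest of all. These values rest on 149, 124 and 9 such cells with anti-VSIG4 and 343, 25 and 10 with IgG.

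In fibroblasts Saa3 was 4912, 2614 and 4828 CPM with anti-VSIG4 and 3554, 3281 and 2712 CPM with IgG. The levels overlapped (log2 change 0.32 ± 0.26, and -0.12 without the top 6% of doublet scores). The share of fibroblasts with Saa3 did not, at 50.6%, 44.3% and 50% with anti-VSIG4 and 33.8%, 39.4% and 31.1% with IgG. How many of all genes separate in this way by share of positive cells was not computed. In neutrophils Saa3 was 288, 340.3 and 442 CPM with anti-VSIG4 and 135, 232 and 227 CPM with IgG, and the groups did not overlap (log2 change 0.96 ± 0.25; 2.89% of 11064 genes lay above).

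Low counts of Saa3 in cells that are not its source also stood higher with anti-VSIG4. In T cells it was 205, 140.0 and 103 CPM with anti-VSIG4 and 67.5, 99.6 and 46.4 CPM with IgG (log2 change 1.08 ± 0.33; 3.45% of 10845 genes lay above). A single T cell of anti-VSIG4 1 held 489 Saa3 UMIs, and without it that library had 135 CPM, still above all IgG libraries. NK cells had 122, 149 and 112 CPM with anti-VSIG4 and 47.0, 105 and 84.2 CPM with IgG (3.64% of 6100 genes lay above). The dendritic cell class cDC2 had 145, 152 and 93.8 CPM with anti-VSIG4 and 51.8, 71.0 and 34.8 CPM with IgG (4.01% of 8203 genes). In these 3 classes the groups did not overlap, and in migratory dendritic, endothelial and plasma cells they did. After thinning, 12.2%, 13.8% and 12.5% of T cells had Saa3 with anti-VSIG4 and 5.70%, 9.35% and 5.21% with IgG, also without overlap (not computed for all genes).

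For each gene the median over these 6 classes outside the sources (T, NK, cDC2, migratory dendritic, endothelial and plasma cells) gives the low level of a library. For Saa3 it was 127 ± 24.1 CPM with anti-VSIG4 and 75.8 ± 16.4 CPM with IgG (SD, n = 3 each). For Hp it was 53.0 ± 16.2 CPM with anti-VSIG4 and 30.4 ± 15.9 CPM with IgG, and in 2 of the 6 classes the groups did not overlap (endothelial cells, and plasma cells, where 16.4% of 2969 genes lay above). For Lcn2 it was 21.3 ± 13.8 CPM with anti-VSIG4 and 12.01 ± 2.42 CPM with IgG, and in each of the 6 classes the groups overlapped. The low Saa3 level in these classes was therefore higher by 51.6 CPM on average, beside a difference of 250.3 CPM over all cells.

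Low counts were also set against those of genes of the source classes within each library. In T cells there were 3.23, 4.83 and 5.46 Hp UMIs per 100 UMIs of S100a8 and S100a9 with anti-VSIG4 and 3.00, 5.02 and 8.68 with IgG. Neutrophils had 2.89, 4.68 and 4.52 with anti-VSIG4 and 2.53, 4.41 and 4.83 with IgG, close to T cells except in IgG 3. Monocyte/macrophages had 8.01, 33.1 and 39.4 with anti-VSIG4 and 14.2, 49.0 and 116 with IgG, above both classes in every library.

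For Saa3, T cells had 41.1, 51.1 and 25.9 UMIs per 100 of the macrophage genes C1qa and C1qb with anti-VSIG4 and 23.7, 37.4 and 32.8 with IgG. Monocyte/macrophages had 23.9, 50.8 and 31.9 with anti-VSIG4 and 12.4, 40.5 and 46.2 with IgG. Neutrophils had 51.2, 112 and 132 with anti-VSIG4 and 37.7, 94.5 and 124 with IgG, above monocyte/macrophages in all 6 libraries. The T-cell ratio lay on both sides of the macrophage ratio, whereas the neutrophil ratio did not. For Lcn2, T cells had 1.19, 1.42 and 1.57 UMIs per 100 of S100a8 and S100a9 with anti-VSIG4 and 1.17, 0.471 and 2.49 with IgG. Neutrophils had 1.03, 0.583 and 2.31 with anti-VSIG4 and 0.696, 0.92 and 1.99 with IgG. Over all libraries the ratio was 1.28 in T cells, 1.30 in neutrophils and 40.1 in tumour/epithelial cells. In neutrophils without the granule sub-cluster it was 0.744, below T cells.

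The 3 genes were found together in some cells. After thinning, Hp was present in 55.5% of Lcn2-positive neutrophils and 32.1% of Lcn2-negative ones. In the Marco sub-cluster Hp was present in 26.6% of Saa3-positive cells and 10.6% of Saa3-negative ones, and in fibroblasts in 23.9% and 12.2%. Saa3 in neutrophils did not follow Lcn2, with 14.6% of Lcn2-positive and 14.3% of Lcn2-negative cells. These shares are pooled over the libraries. Those of neutrophils are also pooled over sub-clusters whose Lcn2 and Hp levels differ. The part of the mix of libraries and sub-clusters in these contrasts was not tested.

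Other genes of the pathway were read from 4 lists: other acute-phase proteins (29 genes), inducers and their signalling (31), receptors and partners (18) and neutrophil granule genes (17). None of their members passed edgeR's quasi-likelihood test at an adjusted p of 0.05 in neutrophils, monocyte/macrophages, tumour/epithelial cells, fibroblasts or T cells. Across all genes the test called 1 of 11064 in neutrophils (0.00904%) and 0 in the other 4 classes, where unadjusted p was under 0.05 for 537, 472, 591 and 405 genes in that order, against 612 in neutrophils. DESeq2 called 15 genes in neutrophils and 21, 4, 35 and 7 in the other classes in the same order, with 2, 3, 0, 2 and 2 of the lists. In neutrophils 14 of 15 granule genes had a positive change, with a median log2 change of 0.56 beside -0.02 for all genes. This was not particular to neutrophils: the change was positive for 11 of 12 in tumour/epithelial cells (median 0.78), 10 of 11 in T cells (0.76) and 7 of 8 in fibroblasts (0.53). In monocyte/macrophages it was positive for 7 of 14 (0.02). In neutrophils Cd177, a surface protein of these cells, averaged 513 ± 110 CPM with anti-VSIG4 and 290 ± 23.5 CPM with IgG (log2 change 0.91 ± 0.18, edgeR adjusted p = 0.717). Camp, which leads the granule sub-cluster, averaged 609 ± 978 CPM with anti-VSIG4 and 184 ± 242 CPM with IgG (1.92 ± 2.39, edgeR adjusted p = 0.914), a spread larger than the difference. Il1b, the inducer interleukin 1 beta, averaged 19407 ± 2163 CPM with anti-VSIG4 and 15719 ± 2615 CPM with IgG (0.41 ± 0.21, edgeR adjusted p = 0.857).

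In monocyte/macrophages Il1b averaged 6712 ± 413 CPM with anti-VSIG4 and 4804 ± 777 CPM with IgG (log2 change 0.47 ± 0.19, edgeR adjusted p = 0.999). The metallothionein gene Mt1 averaged 2837 ± 228 CPM with anti-VSIG4 and 2622 ± 387 CPM with IgG, and Il1rn, the interleukin 1 receptor antagonist, 1048 ± 80.0 and 875 ± 294 CPM. In fibroblasts 4 of 14 other acute-phase genes lay below in every anti-VSIG4 library, as Hp and 5.07% of all genes did. They were C3 and C4b of complement, the lipopolysaccharide-binding protein gene Lbp and the protease inhibitor gene Serpina3n, of which C4b, Lbp and Serpina3n were named after their values were seen. C3 averaged 1358 ± 419 CPM with anti-VSIG4 and 2458 ± 492 CPM with IgG (log2 change -0.91 ± 0.26, edgeR adjusted p = 0.569). In tumour/epithelial cells Il1b averaged 1061 ± 431 CPM with anti-VSIG4 and 463 ± 311 CPM with IgG (1.20 ± 0.50, edgeR adjusted p = 0.999).

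Across 17 groups of cells, the genes whose level over the classes was most like that of Lcn2 were Tst, Egln3, Urah, Cdc42ep2 and Prr15l (Pearson r of log2 levels from 0.81 to 0.73, of 11037 genes). For Hp they were Igfbp6, Wfdc21, Btg2, Fpr2 and Tlr6 (0.89 to 0.78), and for Saa3 Olfml3, Ctsk, C3, Lrp1 and C4b (0.88 to 0.84). Between the members, r was 0.55 for Lcn2 and Hp, 0.55 for Hp and Saa3, and 0.15 for Lcn2 and Saa3. These values describe the classes and share their depth. The related genes Saa1 and Saa2 had 206 and 64 UMIs in all cells against 255791 for Saa3, and the sources used here do not say how any reads shared between these genes were counted.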

How the data were processed

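Each of 6 tumours gave 1 single-cell library, with 3 mice per group. The authors deposited raw UMI counts for each gene and barcode and used STAR and Seurat 4.11, per the submitters' processing notes. The genome build is not given in the sources used here. Cells with at least 500 UMIs, 300 genes and at most 20% mitochondrial UMIs were kept, clustered with scanpy 1.11.5 (Leiden, resolution 1) on 3000 variable genes, and named by marker genes. The mixed cluster was clustered again and its parts were named by the same markers. Neutrophils, monocyte/macrophages and tumour/epithelial cells were then each clustered again to give sub-clusters. Scrublet called 0 doublets and so had not worked; removing the top 6% of scores was an alternative. Counts were summed per library and class with at least 20 cells in every library and tested with edgeR 4.0.16 (quasi-likelihood, TMM, Benjamini-Hochberg over all genes tested); DESeq2 1.42.0 was an alternative. The edgeR fit was tried on counts simulated for neutrophils and monocyte/macrophages. The members and lists were chosen with earlier results of these data known. Genes named from a list that had no member past the threshold are among its 3 of highest mean CPM in the class; genes most like a member were the 5 of highest r among genes of at least 20 CPM in some class.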

Additional observations from a re-analysis of the deposited data

Results flagged for a closer look

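Hp moved in opposite directions in different classes, with every library of one group on one side. The log2 ratio of the group mean CPM, anti-VSIG4 over IgG, was 2.75 in endothelial cells, 1.32 in plasma cells and 0.55 in neutrophils, where every anti-VSIG4 library lay above every IgG library, as 6.87%, 16.4% and 2.89% of all genes tested did in these classes in that order. In the same endothelial cells 4 of the 8 neutrophil markers and 6 of the 9 monocyte/macrophage markers also lay above. The part of RNA from either class in the Hp value was not tested. In fibroblasts it was -0.83, with every anti-VSIG4 library below every IgG library, as did 5.07% of genes. The difference of Hp between these classes was not tested.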

How the results depend on the processing

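The number of cells behind a class, the nucleus-like share of 3 libraries and 1 library per mouse limit these values, and doublets were not identified. Of the alternative log2 changes of the 3 genes, 277 moved by less than 1 SE of the change and 44 by more, and all 72 alternative shares of UMIs by class moved by less than the spread between libraries. Where a value moved, the cause was not tested unless the change in cells or libraries states it.

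Counts of genes past an adjusted p of 0.05 are given for neutrophils, monocyte/macrophages, tumour/epithelial cells, fibroblasts and T cells in that order, where edgeR called 1, 0, 0, 0 and 0 genes, and none of the 4 lists. DESeq2 called 15, 21, 4, 35 and 7 genes, with 2, 3, 0, 2 and 2 of the lists. Without a filter beyond 1 count, edgeR called 80, 38, 53, 180 and 78 genes, with 4, 3, 3, 9 and 6 of the lists. With library kind as a covariate it called 9, 4, 0, 11 and 0 genes, with 2, 1, 0, 1 and 0 of the lists. Among libraries with few nucleus-like cells (2 anti-VSIG4, 1 IgG, where the lone library is assumed to vary like the others) it called 28, 70, 6, 44 and 51 genes, with 0, 5, 0, 4 and 7 of the lists. Among libraries with many (1 anti-VSIG4, 2 IgG) it called 171, 330, 108, 221 and 10 genes, with 14, 12, 8, 7 and 1 of the lists. Removing the top 6% of doublet scores gave 1 gene in T cells.

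The fit with a replicate block called 15, 0, 1, 31 and 12 genes, with 1, 0, 0, 2 and 3 of the lists. The library titles do not say that the numbers pair the mice. Deviations of libraries with number 2 correlated at -0.205 in neutrophils and -0.226 in monocyte/macrophages, number 1 at 0.32 and 0.258, and number 3 at 0.302 and 0.283. With 3 libraries per group these correlations cannot settle whether mice were paired. Under this replicate block the log2 changes of the 3 genes stayed within 1 SE of those without it.

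Leaving out each library in turn gave 0 to 1 genes in neutrophils, 0 to 16 in monocyte/macrophages, 0 to 3 in tumour/epithelial cells, 0 to 7 in fibroblasts and 0 to 1 in T cells, with 0 to 2 of the lists in monocyte/macrophages and 0 to 1 in tumour/epithelial cells. In monocyte/macrophages, tumour/epithelial cells and fibroblasts the most were called without IgG 1. The log2 change of Lcn2 ranged from 0.24 (without anti-VSIG4 3) to 1.28 in neutrophils, from 1.12 to 1.63 in monocyte/macrophages, from 1.07 to 1.45 in tumour/epithelial cells, from -0.45 to 1.05 (without IgG 1) in fibroblasts and from 0.53 to 1.89 (without IgG 1) in T cells. That of Hp ranged from -0.14 (without anti-VSIG4 3) to 0.21 in monocyte/macrophages, from 0.82 to 1.76 (without IgG 1) in tumour/epithelial cells, from -1.13 to -0.67 in fibroblasts and from 0.55 to 1.17 (without IgG 1) in T cells. That of Saa3 ranged from -0.77 (without IgG 1) to 0.05 (without IgG 3) in monocyte/macrophages, from 0.17 to 0.54 in fibroblasts, from 0.48 to 1.39 (without IgG 2) in tumour/epithelial cells, from 0.80 to 1.45 in T cells and from 0.37 to 0.95 (without IgG 2) in all cells.

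Among libraries with few nucleus-like cells, the log2 change of Lcn2 was 0.84 in tumour/epithelial cells, -0.98 in fibroblasts, 0.03 in T cells and 0.62 in all cells. That of Hp was 0.40 in tumour/epithelial cells, 0.23 in T cells and 0.20 in all cells, and that of Saa3 was 1.26 in neutrophils, 1.30 in monocyte/macrophages, 0.02 in fibroblasts and 1.41 in T cells. Among libraries with many, Lcn2 changed by 1.56 in neutrophils, 1.51 in tumour/epithelial cells, 1.04 in fibroblasts, 1.69 in T cells and 1.64 in all cells. Hp changed by 0.88 in neutrophils, -1.27 in fibroblasts, 1.14 in T cells and 1.32 in all cells, and Saa3 by -0.51 in monocyte/macrophages, 0.63 in fibroblasts and 0.52 in T cells. With library kind as a covariate Saa3 changed by 0.41 in monocyte/macrophages, and without the top 6% of doublet scores by -0.12 in fibroblasts.

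Alternatives chosen after seeing the data left out cells, or left out single libraries or nucleus-like cells where a difference over all cells was divided among classes. Without the cells that carry 50% of a gene's UMIs, the log2 ratio of Lcn2 was 0.22 in neutrophils, 1.08 in monocyte/macrophages and 0.17 in tumour/epithelial cells, that of Hp was 0.22 in fibroblasts and that of Saa3 -0.07 in fibroblasts. Lcn2 changed by 0.82 in tumour/epithelial cells without the Ambp sub-cluster and by 0.65 in all cells without this and the granule sub-cluster, and Saa3 by 1.12 in monocyte/macrophages without the Marco sub-cluster.

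Shares of positive cells move with depth. Thinned to 500 UMIs, Lcn2 was found in 6.04% of neutrophils, 5.01% of tumour/epithelial cells and 0.729% of T cells. Hp was found in 24.3% of neutrophils, 8.57% of monocyte/macrophages and 2.19% of T cells, and Saa3 in 17.4% of monocyte/macrophages, 34.1% of fibroblasts and 5.30% of T cells. Without thinning, Lcn2 was found in 19.9% of tumour/epithelial cells and 4.93% of T cells, Hp in 42.3% of neutrophils, 35.9% of monocyte/macrophages and 12.2% of T cells, and Saa3 in 52.8% of monocyte/macrophages, 67.8% of fibroblasts and 30.4% of T cells. The share of neutrophils among cells was 5.61 percentage points higher with anti-VSIG4, but -0.85 points when nucleus-like cells were left out of the denominator, and -0.702 to 13 points when each library was left out, the lowest without IgG 3.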

Other observations

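Some classes were too small in some libraries to compare groups. Acinar cells, which make the digestive enzymes of the pancreas, had Lcn2 at 903, 0 and 2003 CPM in anti-VSIG4 libraries and 102, 13.1 and 35.3 CPM in IgG libraries, from 30, 21 and 6 cells and from 22, 32 and 35 cells. Without the 2 acinar cells richest in Lcn2 the level was 437, 0 and 0 CPM with anti-VSIG4. Endocrine cells (53 in all) had Saa3 at 179.5, 414 and 1192 CPM with anti-VSIG4 and 0, 105 and 839 CPM with IgG. B cells had Saa3 at 155, 171 and 62.9 CPM with anti-VSIG4 and 40.2, 27.2 and 22.7 CPM with IgG, from 7 to 57 UMIs and 1 to 5 UMIs per library.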
